A study of Mus musculus with 2 samples.

Results

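The ligands protein S (Pros1) and Gas6, their receptors Axl, Mertk and Tyro3, and the related bridging protein Mfge8 were followed in the lens of newborn mice with and without the forkhead transcription factor Foxp1. These 6 genes were taken by name from 20655 genes that the array probes could be matched to, and 7 probes read them, with 2 for Tyro3 and 1 for each other gene. They were chosen by name with the higher Pros1 signal of these arrays already known, so the differences below are a description, with no test. The control array held lens RNA of mice labelled wild-type and the other array held lens RNA of mice labelled Foxp1 KO, 1 array each, at postnatal day 0. Both groups had a mixed C57BL/6 background, and the treatment text of both samples lists the same alleles, a floxed Foxp1 and the Cre driver Pax6-L-Cre. The labels do not say which cells the driver acts in beyond its name, whether the controls carried Cre, or how many animals gave each RNA. Without replicate arrays, each difference is one between these arrays.

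Axl, Mertk and Tyro3, called the TAM receptors, are receptor tyrosine kinases at the cell surface. Their ligands Gas6 and protein S carry a vitamin K dependent Gla domain that binds phosphatidylserine, the lipid that dying cells and shed cell membranes expose. A ligand held on such a membrane clusters the receptor on a neighbouring cell, which starts engulfment and dampens inflammatory signalling. In the eye, Mertk is known for the uptake of photoreceptor outer segments by the retinal pigment epithelium. Protein S also circulates as a cofactor of activated protein C, an anticoagulant. Mfge8 binds phosphatidylserine as well but hands the cell to integrins and not to TAM receptors.

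The 250 bases before the transcription start of 3 of these genes are shown, from RefSeq on GRCm38.p6, since Foxp1 is a forkhead factor and forkhead proteins bind sites of the kind TGTTTAC. Pros1 is the ligand that was higher on the knockout array, Gas6 is the other ligand, and Axl has the one full forkhead match of the group. Promoters of all 6 genes were found. Capitals mark 3 words on either strand: TGTTT, its longer form TGTTTAC, and the word GGGCGG, which is the GC box of many promoters.
Pros1 promoter, chr16:62854057-62854306, plus strand: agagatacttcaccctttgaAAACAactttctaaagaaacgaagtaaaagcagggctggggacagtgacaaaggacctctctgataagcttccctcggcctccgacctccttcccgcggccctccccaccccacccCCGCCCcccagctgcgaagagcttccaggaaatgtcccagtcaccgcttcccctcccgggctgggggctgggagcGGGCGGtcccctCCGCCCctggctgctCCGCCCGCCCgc
Gas6 promoter, chr8:13494536-13494785, minus strand: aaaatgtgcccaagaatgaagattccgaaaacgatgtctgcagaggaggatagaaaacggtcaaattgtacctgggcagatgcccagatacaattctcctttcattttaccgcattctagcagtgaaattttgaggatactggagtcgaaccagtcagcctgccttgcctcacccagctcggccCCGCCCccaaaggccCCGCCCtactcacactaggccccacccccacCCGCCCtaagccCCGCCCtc
Axl promoter, chr7:25788734-25788983, minus strand: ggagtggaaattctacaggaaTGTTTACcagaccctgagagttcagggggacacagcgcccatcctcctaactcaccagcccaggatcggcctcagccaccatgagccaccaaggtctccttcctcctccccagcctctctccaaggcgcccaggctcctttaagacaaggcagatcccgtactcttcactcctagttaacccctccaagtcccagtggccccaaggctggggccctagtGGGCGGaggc
The Axl window held TGTTTAC once, at position -229 counted from the start, and the other 5 windows held no match. That word was present in 3.17% of 32851 mouse promoter windows of this length. The shorter word TGTTT lay inside the Axl match and was found once in the Pros1 window, on the reverse strand at position -230. It was in 46.4% of all windows, so a match is common. The GC box was found in all 6 windows, 5 times for Pros1, 4 times each for Gas6 and Mfge8, 3 times each for Mertk and Tyro3 and once for Axl, against 32.7% of all windows with at least 1. Matches of GGGCGG can overlap, as a pair did in Pros1. That word is made of G and C alone, and the 6 windows were rich in these bases. Their GC content ran from 54.8% for Gas6 to 73.2% for Tyro3, against a median of 52.4% over all promoters. The E-box CACGTG, present in 6.02% of all windows, was in none of the 6. Neither was the TATA box word TATAAA (12.4% of all windows) nor the CCAAT word (33.8% of all windows). A match is a description of letters and shows no binding.

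Values are processed signals, the spot brightness after background subtraction by the scanner software, given with the scanner's own error estimate for the spot. Differences are on the log2 scale, knockout minus control, after each array's 75th percentile was subtracted. A difference of 1 is 2-fold and was the limit for calling a gene higher or lower. Over the 14254 measured genes, those above background on both arrays, the median difference was 0.00434, and 67.5% of gene spots were well above background on the control array against 56.9% on the knockout array. Dim spots tended to read lower on the knockout array, among them the spike-in RNA of lowest signal that was above background on both arrays, at 86.7 and 37.8, a difference of -1.16. The next dimmer spike-in RNA read 55.2 and 6.87, a difference of -3.10, and was above background on the control array alone. The bounds of at least 2-fold lower given below also come from dim control signals. Foxp1 itself read lower with all 3 of its probes, by -1.84, -1.82 and -1.33. The last of these probes was dim, at 97.5 and 38.4, near the spike-in RNA at 86.7 and 37.8. Lens markers were bright, with 14 of 14 measured and 0 past 2-fold. Their median was -0.02, and the largest difference among them was -0.67, for Lgsn, the lens protein lengsin.

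Pros1, protein S, was the one member that was at least 2-fold higher. Its probe read 331 ± 33.5 (scanner error) in control lens and 1714 ± 171 in knockout lens. The knockout signal was far above the control signal, and the error ranges of the spots did not overlap. The difference was 2.38, or 5.22-fold, with a 95% range of 2.15 to 2.62 from the noise between spots of one probe. The raw spot, before background subtraction, read 346.5 and 1581.5 beside a local background of 26 on both arrays, so background subtraction had little weight. Of all measured genes 1% were at least 2-fold higher, as were 0.828% of the brighter 7127 (mean signal at or above the median). The group was chosen with this value known, so nothing is read from its share. Pros1 was 17th from the top of the 14254 genes and 12th among the brighter 7127. Sorted into 10 classes by mean signal, Pros1 fell in class 7, where 14 of 1426 genes were at least 2-fold higher (0.982%) and 4 lay as high as Pros1, itself included. The middle 90% of that class lay between -0.32 and 0.54.

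Gas6, the other TAM ligand, did not share this difference. It read 10793 ± 1079 in control lens and 11977 ± 1198 in knockout lens, which are nearly equal and overlap within their errors. The difference was 0.16, with a spot noise range of -0.000731 to 0.33. Mfge8, the integrin-linked bridging protein, read 47198 ± 4720 and 48109 ± 4811, a difference of 0.04 with a range of -0.12 to 0.20. Both genes fell in the brightest of the 10 classes, whose median was 0.06, and 349 of its 1426 genes were as high as Gas6.

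**Figure D1:**
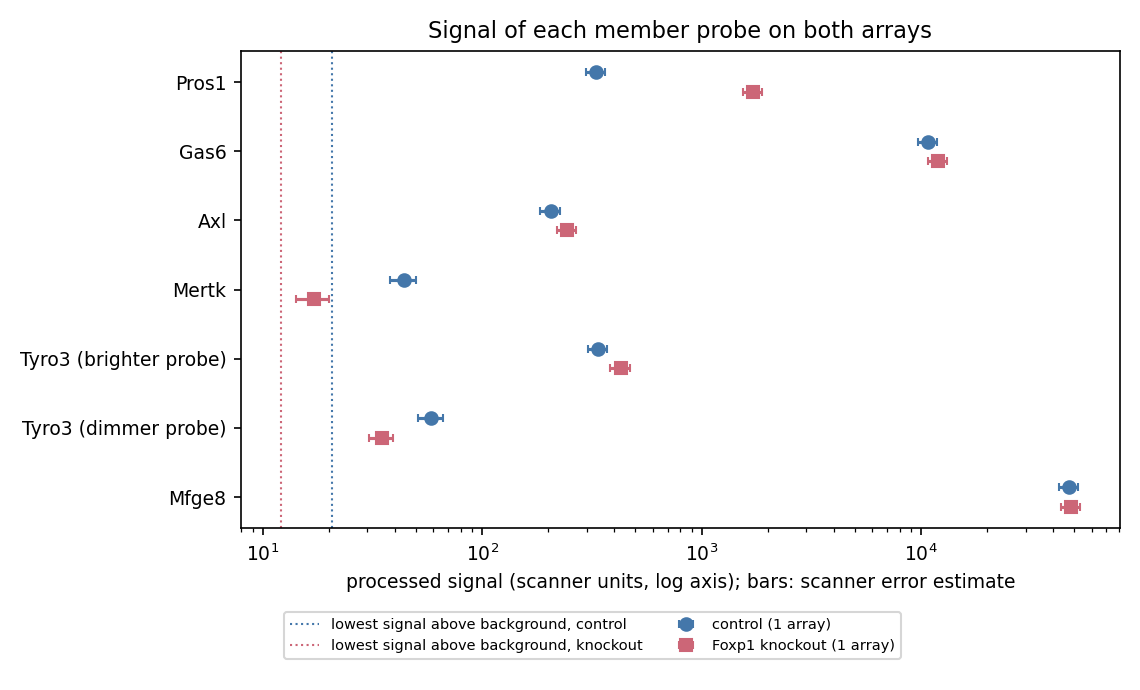
Processed signal in scanner units (log axis) of the 7 probes that read the 6 genes, with circles for the control array, squares for the Foxp1 knockout array and bars for the scanner's error estimate. Pros1 moves from 331 to 1714, Gas6 and Mfge8 overlap, and Mertk lies near the dotted lines, the lowest signals called well above background (20.6 for control and 12.1 for knockout).

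Protein S is known to act through Tyro3 and Mertk, and Gas6 through all 3 receptors. Transcripts of all 3 were detected, since each of the 4 receptor probes was well above background on both arrays. Whether the RNA came from lens cells or from other cells carried along cannot be told from whole lens RNA, and fewer cells of a type cannot be told apart from less RNA per cell. Axl, the TAM receptor known for tight binding of Gas6, read 205 ± 21.1 in control and 243 ± 24.5 in knockout lens. These readings overlapped within their errors. The difference was 0.25, with a spot noise range of -0.03 to 0.54 that holds 0. Of the 1425 genes of its signal class, 276 were as high.

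Tyro3, a TAM receptor prominent in the nervous system, was read by 2 probes for one RefSeq transcript, NM_019392, and they disagreed in sign. The brighter probe read 337 ± 34.1 and 427 ± 42.9, a difference of 0.35 with a spot noise range of 0.12 to 0.59. The dimmer probe read 58.8 ± 7.50 and 34.8 ± 4.41, a difference of -0.74 with a spot noise range of -1.30 to -0.18. Neither reached 2-fold. Their mean was -0.19 ± 0.78 (SD over 2 probes), so the pair gives Tyro3 no direction. The dimmer probe lay in signal class 2, where the median was -0.36 and 17.7% of genes were at least 2-fold lower. The brighter probe lay in class 6, where the median was 0.06 and 0.632% were.

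Mertk, a TAM receptor known for its role in engulfment, was the one member at least 2-fold lower, and its readings lay near background. Its signal was 43.95 ± 6.05 for control and 17.1 ± 2.98 for knockout. The knockout reading was the lower one and its error range did not overlap the control's, yet it lay close to 12.1, the lowest signal called well above background there. The difference was -1.35, or 2.55-fold, with a spot noise range of -1.91 to -0.79, which may be too narrow for a spot this dim. In its signal class, the dimmest of 10, 30.4% of the 1426 genes were at least 2-fold lower, the median was -0.61, and 242 genes were as low as Mertk. Over all measured genes 5.89% were at least 2-fold lower, 11.4% of those below the median signal and 0.393% of those at or above it. The raw Mertk spot read 95 and 60.5, against a median of 44 and 37.5 for 308 spots of negative control probes, which have no target in the RNA. Of those spots 2 were as bright as Mertk in control and 0 in knockout. With loess between the arrays the difference was -0.33, with quantile normalization -0.09 and with normexp background correction -0.45, so the lower call was lost under each of these, while the sign stayed below 0.

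**Figure D2:**
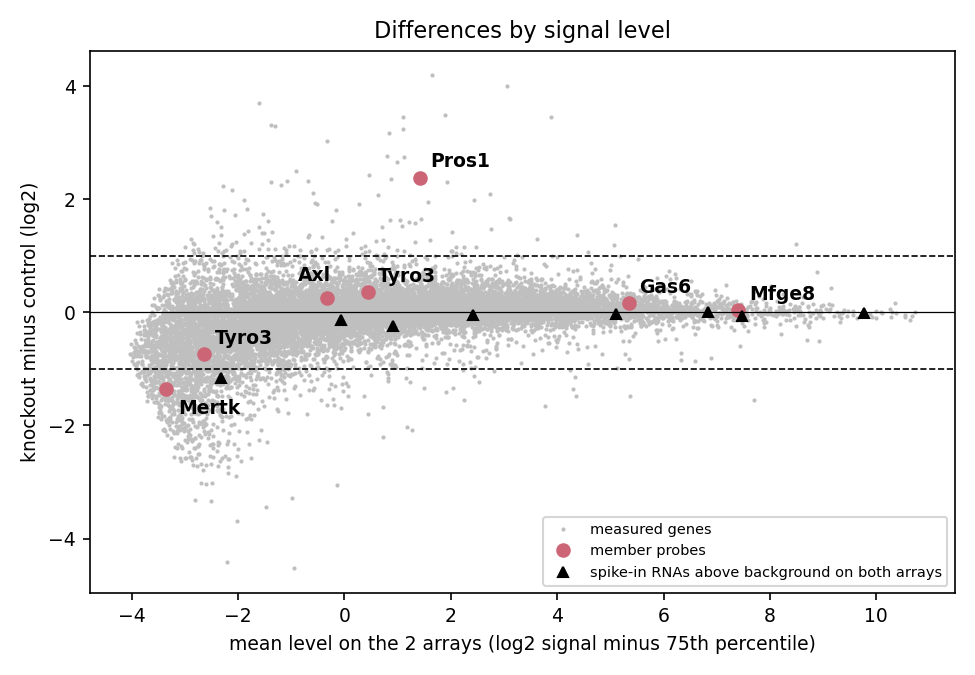
Knockout minus control difference (log2) against mean level on both arrays (log2 signal minus the 75th percentile) for 14254 measured genes (grey), the 7 member probes (red) and spike-in RNAs above background on both arrays (triangles), with dashed lines at 2-fold. Pros1 stands at 2.38 above the cloud, while Mertk and the dimmer Tyro3 probe lie within the dim left end, where the cloud bends below 0.

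Of the 6 genes, Pros1 alone passed 2-fold upward and Mertk alone passed it downward, and the other 4 stayed inside the limits. The median was 0.10. Pros1 stayed above 2-fold under each of 10 other settings, with log2 differences between 2.16 and 3.47. Scaling by array medians moved the median of all measured genes to 1.09, and relative to that shift Gas6, Axl and Mfge8, at 1.25, 1.34 and 1.12 there, kept small differences. Leaving that scaling aside, Tyro3 changed sign under 4 of the other 9 settings and Mfge8 under 1. Where each Tyro3 probe was read alone, the brighter one changed sign under 0 of 7 settings and the dimmer one under 1.

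**Figure D3:**
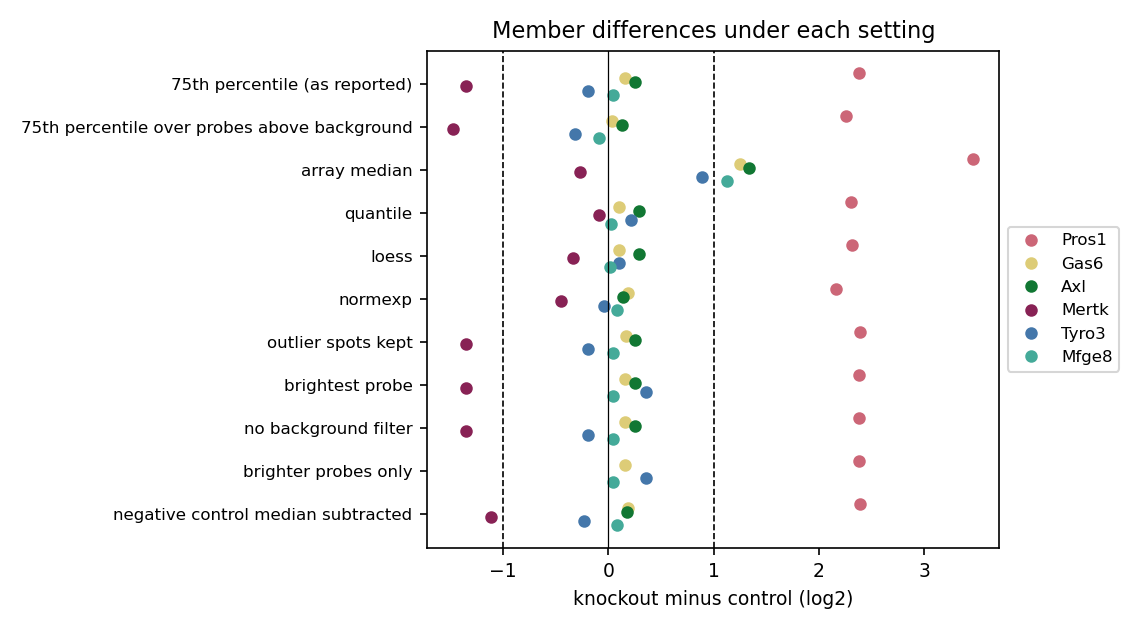
Knockout minus control difference (log2, horizontal axis) of the 6 genes under the reported setting (top) and 10 alternatives (vertical axis), with dashed lines at 2-fold. Pros1 stays between 2.16 and 3.47, Mertk moves between -1.47 and -0.09, and Axl and Mertk have no value with brighter probes only; array medians shift every gene upward.

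The transcripts that make and surround a TAM ligand were read from 8 lists holding 85 genes, and 66 of them had a value in both lenses. Of these 66, 0 passed 2-fold upward and 5 passed it downward (7.58%). All 5 lower genes were among the 38 dimmer ones, where the background is 11.4%, and 0 of the 28 brighter ones passed. The median was 0.06 for the brighter genes and -0.21 for the dimmer ones, against 0.08 and -0.17 over all genes of the same brightness. A further 7 genes were above background on the control array alone, and for 6 of them the bound was at least 2-fold lower. That holds for 92.9% of all 1809 such genes. Leaving out array medians, which shift every gene alike, 10 of the 14 medians of the 6 marker and 8 pathway lists changed sign under at least 1 of the other 9 settings. The other 4 kept theirs, above 0 for retina and neuron markers, mesenchyme markers, and other TAM ligands and sheddases, and below 0 for retinal pigment epithelium markers.

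Vitamin K recycling and carboxylation enzymes, which protein S and Gas6 need for their Gla domain, were all measured, 5 of 5, with 0 past 2-fold and a median of -0.17. The reductase gene Vkorc1l1 had the largest difference, 0.44. Ggcx, the carboxylase, read 71.3 and 61.6, a difference of -0.20, and Vkorc1, the main vitamin K epoxide reductase, had one of -0.17, both named after their values were seen. Other Gla proteins had a median of 0.01 over 7 measured genes, with 0 past 2-fold either way. The protein C gene Proc was above background on the control array alone, at 32.5 against 3.24, at least 2.66-fold lower.

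In the protein C pathway, in which protein S acts as cofactor, 1 of 7 measured genes was lower, 0 were higher, and the median was -0.57. Factor V, F5, went from 57.3 to 24.0, 2.37-fold lower. Serpina5, the protein C inhibitor, was at least 3.86-fold lower, from 47.1. These readings were all dim, 6 of the 7 measured genes lay below the median signal, and the list's median turned to 0.37 under quantile normalization and 0.08 after loess. Of 5 ligands and proteases that act on TAM receptors besides the members, 0 passed 2-fold. The largest difference was 0.75 for Adam10, a membrane protease that sheds cell surface proteins, from 6897 to 11493, and the list's median was 0.25.

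Signalling partners of the receptors had a median of 0.02 over 12 measured genes, with 2 lower and 0 higher. Src, a kinase downstream of many surface receptors, read 70.4 and 17.0, 4.11-fold lower, and Tns2, a phosphatase-like adaptor, read 149 and 73.9, 2.004-fold lower. Twist1, a transcription factor, was at least 2.05-fold lower, from 25.1. All of these genes were read by dim probes, and none of the 6 brighter partners passed 2-fold. Among other phosphatidylserine receptors and bridging proteins 1 of 12 measured genes was lower, Cd300lf, a myeloid receptor, at 81.7 and 34.3, and 0 were higher, with a median of -0.17. The integrin subunits that take up Mfge8-coated cells, named after their values were seen, did not pass 2-fold. Itgb5 had a difference of -0.11 and Itgav one of 0.44, while the other beta subunit, Itgb3, read 17.3 and 16.9 and was above background on the knockout array alone, where the limit is lower.

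The engulfment machinery that acts after these receptors had a median of 0.09 over 9 measured genes, with 1 lower and 0 higher. Elmo3, an adaptor of the Rac activator Dock1, was 2.29-fold lower on average over 2 probes. Its brighter probe went from 560 to 340, short of 2-fold, so the call rests on the dimmer one. Elmo1, a relative of Elmo3, was above background on the control array alone and at least 5.61-fold lower, from 68.6 to 5.12. A spike-in RNA near that signal read 55.2 and 6.87. Genes that put phosphatidylserine on the cell surface or take it back had a median of -0.03, with 0 of 9 past 2-fold. Xkr4, of the scramblase family, was above background on the control array alone and at least 3.97-fold lower, from 53.4.

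**Figure D4:**
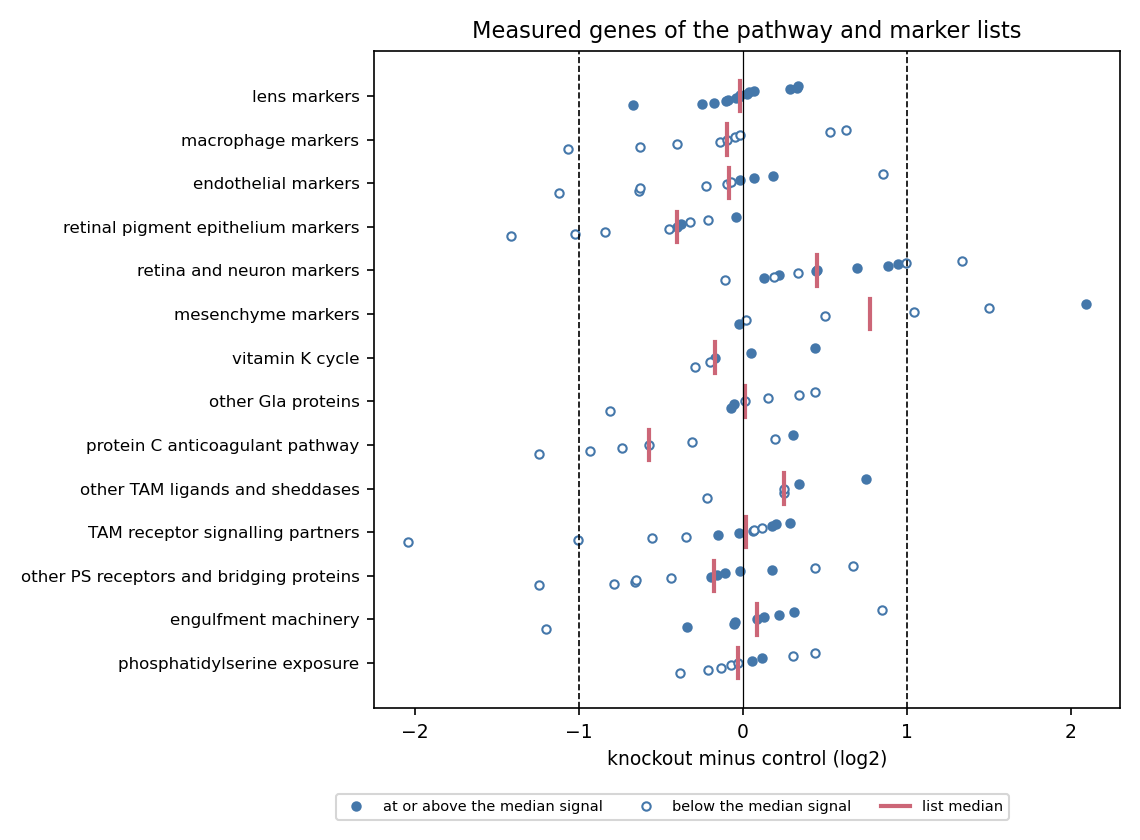
Knockout minus control difference (log2) of each measured gene of 6 marker lists and 8 pathway lists, filled where the gene lies at or above the median signal, with red bars for list medians and dashed lines at 2-fold. No pathway gene lies beyond the upper line, and the 5 beyond the lower line are open circles; mesenchyme and retina markers lie mostly to the right.

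Markers of other cell types moved unevenly, and their part in the Pros1 and Mertk differences was not tested. Of the mesenchyme markers 3 of 6 measured were at least 2-fold higher, as Pros1 was, against 1% of all measured genes. The summed signal of these 6 was 1983 and 5092, and 1068 and 1220 for the other 5 without Acta2. Pdgfra, at 725 and 709, made up most of the smaller sums. Sums here and below take the unscaled signal of each measured gene's probe that was brightest on the control array. A further 3 mesenchyme markers, above background on the knockout array alone, are not in the sums, and each had a bound of at least 2-fold higher. The receptor genes Pdgfra and Pdgfrb, named after their values were seen, lay at -0.02 and 0.02. Acta2, smooth muscle actin, was 4.26-fold and the collagen gene Col3a1 2.84-fold higher. Col3a1 was dim, at 33.5 and 94.2. So was Col1a1, also past 2-fold and named after its value was seen, at 31.2 and 63.8. Dcn, decorin, was above background on the knockout array alone, at least 7.18-fold higher. A bound of that kind reached 2-fold for 6.36% of the 472 genes above background there alone. Markers of retina and neurons, 11 of 12 of them above 0, had 1 gene at least 2-fold higher, Pou4f2, a ganglion cell factor, at 2.52-fold, and a summed signal of 9041 against 12019. Macrophages are known to carry Mertk and Axl. Of their markers 0 of 9 measured genes were higher and 1 was lower, Ptprc, the leukocyte antigen CD45, from 40.3 to 19.1. Their summed signal was 1523 and 1477, and all 9 lay below the median signal when averaged over their probes. Csf1r, named after its value was seen, gave 673 and 690 of these sums with 1 brighter probe. Its mean difference over 3 probes was -0.14. Lyz2, lysozyme, was above background on the control array alone, with a bound of at least 3.50-fold lower. Of all genes seen on that array alone, 92.9% had a bound of at least 2-fold lower. Named after their values were seen, C1qc and Cx3cr1 lay at 0.63 and 0.53, and Cd163, Fcgr1 and Mrc1 were above background on the knockout array alone, with no bound of 2-fold. Endothelial markers summed to 4343 and 4069, with 0 of 10 higher and 1 lower, Emcn, at 55.6 and 25.3. Kdr, named after its value was seen, read 1684 and 1411 with the summed probe, while its mean difference over 2 probes was 0.07. Markers of the retinal pigment epithelium, a known site of Mertk, lay below 0 in 9 of 9 cases, with a median of -0.40 and a summed signal of 5833 against 5179. Mitf, named after its value was seen, made up most of these sums, at 3120 and 3251 with the summed probe. Its mean difference over 2 probes was -0.04. Ttr and Best1 of that list were 2.66-fold and 2.03-fold lower at dim signals, and its defining gene Rpe65 was above background on neither array. Over the 6 marker lists together, 4 of 60 measured genes were at least 2-fold lower (6.67%), against 5.89% of all measured genes. All 4 were among the 31 dimmer markers, and of all genes below the median signal 11.4% were.

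Of the measured genes beside the members on their chromosomes, none was higher as Pros1 was. Of the 24 protein-coding genes nearest to the 6 members, taking 2 on each side in the GRCm38.p6 annotation, 15 were measured and 0 passed 2-fold, with a range of -0.78 to 0.41. A further 3, above background on the control array alone, had bounds of at least 2-fold lower, as 92.9% of such genes did. Beside Pros1, Epha3, an ephrin receptor gene, differed by 0.05, while Stx19 and Csnka2ip were above background on neither array. Arl13b, a cilium GTPase gene there, had a mean difference of -0.03 over 2 probes that did not move alike. Its probe brightest on the control array read 115 and 72.2, so the mean gives Arl13b no direction. Rasa3 and Tmem255b beside Gas6 had differences of 0.34 and -0.34, and Grk1 and 1700029H14Rik there were at least 2.08-fold and 3.66-fold lower, from dim control signals of 25.4 and 44.8. Beside Axl, Hnrnpul1 and Ccdc97 lay at 0.17 and 0.12, Cyp2s1 was above background on the knockout array alone and Cyp2b10 on neither. Around Mertk, Anapc1, Tmem87b and Fbln7 lay at 0.24, 0.18 and -0.25, and Spdye4c had no named probe. Around Tyro3, Mga, Rpap1 and Mapkbp1 lay at 0.41, 0.05 and -0.78, and Ltk was at least 4.61-fold lower, from 56.3. Around Mfge8, Hapln3, Rlbp1 and Acan lay at 0.06, -0.32 and -0.66, and Abhd2 was above background on the knockout array alone.

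Among the 7127 brighter genes, the 4 whose difference was closest to that of Pros1 were Asah1, Gm11559, Capn5 and Fgf12, at 2.36, 2.43, 2.31 and 2.66. Likeness here is the gap between log2 differences over 2 arrays, from 0.02 for Asah1 to 0.28 for Fgf12, and carries no more than that. Asah1 encodes acid ceramidase, Capn5 a calpain protease and Fgf12 an intracellular fibroblast growth factor homologue, and Gm11559 is a predicted gene.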

How the data were processed

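RNA of whole newborn lens was measured on 1-colour Agilent arrays, 1 for control and 1 for Foxp1 knockout. Values are intensities as deposited, extracted per the file headers with Agilent Feature Extraction 10.7.3.1 on a layout of mm9, with no scaling between arrays recorded there. The authors' deposited flags for outlier spots and for signals well above background were used as yes or no values.

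Outlier spots on either array and control spots were left out, log2 was taken, each array's 75th percentile was subtracted, and repeat spots were averaged per probe. Measured means over 50% of a probe's spots well above background, on each array, and a gene was the mean of its measured probes. Unversioned RefSeq accessions gave 27225 of 55655 probes a symbol through GRCm38.p6, used for names, neighbours and promoter windows. Probe sequences were not used here. A gene above background on 1 array was given a bound, its bright value against the higher of the dim probe's value and the lowest signal well above background on that array. Spot noise came from 281 probes printed at least 5 times, as the SD of spot differences in 5 signal classes, times 1.96 for 95% ranges. It covers neither animals nor labelling, and the number of arrays limits the precision.

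No test was possible with 1 array a group. The members and lists were chosen with earlier results of these data known. Named genes are the members, Foxp1, list genes past 2-fold or with such a bound (at most 3 a list, or the largest difference), 2 neighbours a side, and the 4 genes closest to Pros1; others are marked. Alternatives were other scalings, normexp (offset 50, limma 3.58.1), filters and probe choices. The files hold median and no mean spot signals, so normexp used the medians. The steps were tested on simulated data.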

Additional observations from a re-analysis of the deposited data

How the results depend on the processing

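Pros1 kept its direction and stayed past 2-fold under 9 of 9 settings listed beforehand and under 1 added after the data were seen, which took the median of the negative control spots as background and gave 2.38. Its value moved beyond spot noise only with array medians, to 3.47, where 4 members were at least 2-fold higher and 0 lower. The count of members at least 2-fold lower, 1 as reported, fell to 0 with array medians, quantile normalization, loess, normexp and brighter probes only, and was 1 under the other settings; the gene is Mertk, at -0.27 with array medians and -1.12 with the added background. With brighter probes only, Axl and Mertk had no probe left. Of all measured genes, 143 passed 2-fold upward and 839 downward as reported. Array medians gave 8767 and 100, quantile normalization 774 and 233, loess 406 and 290, normexp 72 and 100, no background filter 290 and 4479, brighter probes only 66 and 31, and the 75th percentile over probes above background 103 and 1079. The cause was not tested. No paired analysis was possible because each group had 1 array. Low signal over background limits Mertk and the dimmer Tyro3 probe.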
